A study of Mus musculus with 12 samples.

Results

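The collagen genes were taken as the rows of the count table whose symbol is Col, a number, the letter a and a number, such as Col1a1. This gave 44 genes of the 47747 symbols in the table. They were grouped as 11 fibrillar genes, 6 basement membrane genes (type IV), 9 FACIT genes (fibril-associated collagens with interrupted triple helices) and 18 others, the last class holding the type VI, type VIII and membrane-spanning collagens among others. RNA was sequenced from the meninges, the membranes around the brain, of 12 C57bl/6 mice. Of these, 6 mice had received dextran sodium sulphate (DSS), a polysaccharide that injures the lining of the colon, at 2% in drinking water for 5 days and normal water from then on, and 6 were the Control group, for which the labels give no DSS. The DSS mice were culled after 6 days, and the labels do not say from which day this was counted. No cull time was assigned to the Control mice from the labels. The labels give neither age nor sex. The comparison asks whether collagen transcripts in the meninges differed between DSS and Control mice.

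Collagens are triple helices of 3 chains and the main protein of connective tissue. Fibrillar collagens such as type I and type III form the tensile fibres of the dura, skin and bone. Type IV forms the network of basement membranes under endothelium and at the surface of the brain. FACIT collagens sit on fibrils and space them. Each chain is the product of its own gene. Many types are homotrimers of a single chain, while others, among them types I, IV, V, VI, VIII, IX and XI, have chains from more than 1 gene.

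The deposited counts summed to between 9312788 and 41869997 per mouse. The titles and the extraction protocol of the labels name meninges, while their source field names colon. Of 3 genes of meningeal fibroblasts, Foxc1 was at 83.2 to 116 CPM (counts scaled to library size with TMM factors) across the 12 mice, Aldh1a2 at 32.3 to 71.5 CPM and Slc6a13 at 5.82 to 37.6 CPM. Of 5 genes of colon epithelium, Cdx2 had no count in any mouse, and the highest value of any of them in any mouse was 6.24 CPM, for Lgals4. In the library labelled Control 2, 32.3% of counts came from Rn18s-rs5, a ribosomal RNA gene. In DSS 2 the summed skeletal muscle markers reached 202 CPM, against 11.8 to 27.3 CPM in the other 11 mice. Of 18593 genes tested across the table, 919 (4.94%) passed an adjusted p of 0.05 between DSS and Control in edgeR's quasi-likelihood test, 684 (3.68%) higher in DSS and 235 (1.26%) lower.

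In control meninges, 2 fibrillar chains made up about the same amount of collagen transcript as all other collagen genes put together. Levels of different genes were compared per length, as CPM per kilobase of the gene's union of exons, here called the level. Col1a1, the major chain of type I collagen, was at a level of 862 ± 145 (SD, n = 6), rank 11 among 14632 tested protein-coding genes. Col1a2, its partner chain, was at 474 ± 84.2 (SD, n = 6), rank 30. Type I accounted for 51.9 ± 2.96% (SD, n = 6) of the summed collagen level. The order of the 2 type I chains depended on the length used. With the longest annotated transcript in place of the union of exons, which shortens Col1a2 from 12426 to 5348 bases and Col1a1 from 6563 to 5930, Col1a2 stood at 1101 and Col1a1 at 954.

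The chains that followed came from all classes. Col8a2, a short-chain collagen of Descemet's membrane and of vessel walls, was at a level of 245 ± 27.4. Col3a1, the fibrillar collagen of elastic tissues, was at 217 ± 24.2, and the microfibril chain Col6a1 at 127 ± 7.27 (all SD, n = 6). Col12a1, a FACIT of tendon and ligament, was at 111 ± 8.90. Below these, Col8a1, Col6a2, Col5a2, Col4a1 and Col16a1 had levels from 65.3 down to 55.9. In all 6 Control mice Col1a1 stood above Col1a2, Col1a2 above Col8a2, Col3a1 above Col6a1 and Col12a1 above Col8a1, with no overlap of the ranges over mice. Col8a2 was above Col3a1 in 6 of 6 mice, though the 2 ranges overlapped. With the longest transcript as length this order turned, with Col3a1 at 382 and Col8a2 at 253, and so did that of Col6a1 (136) and Col12a1 (146). Col8a1 and Col6a2 changed places from mouse to mouse (Col8a1 higher in 3 of 6), as did Col4a1 and Col16a1 (Col4a1 higher in 3 of 6). The next step without overlap lay between Col14a1, a FACIT of skin and tendon at 30.3 ± 4.58, and Col11a2, a cartilage chain at 14.0 ± 3.15.

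At the low end, 15 of the 44 genes had a level under 1 in Control mice, and 16 had a level of at least 10. The cartilage collagen Col2a1, which forms the main fibril of hyaline cartilage, was at 0.385 ± 0.204, and the hypertrophic cartilage collagen Col10a1 at 0.0675 ± 0.0511 (SD, n = 6). Col11a1, which joins type II fibrils in cartilage and is also made elsewhere, was at 7.25 ± 0.580, far above Col2a1. The epithelial anchoring collagens Col7a1 and Col17a1 were at 0.536 ± 0.128 and 0.248 ± 0.148. In the summed chondrocyte list, which holds no collagen gene, Control mice had 361 to 505 CPM and DSS mice 310 to 666 CPM. Of its 10 genes, 6 were tested and 0 passed the test.

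**Figure D1:**
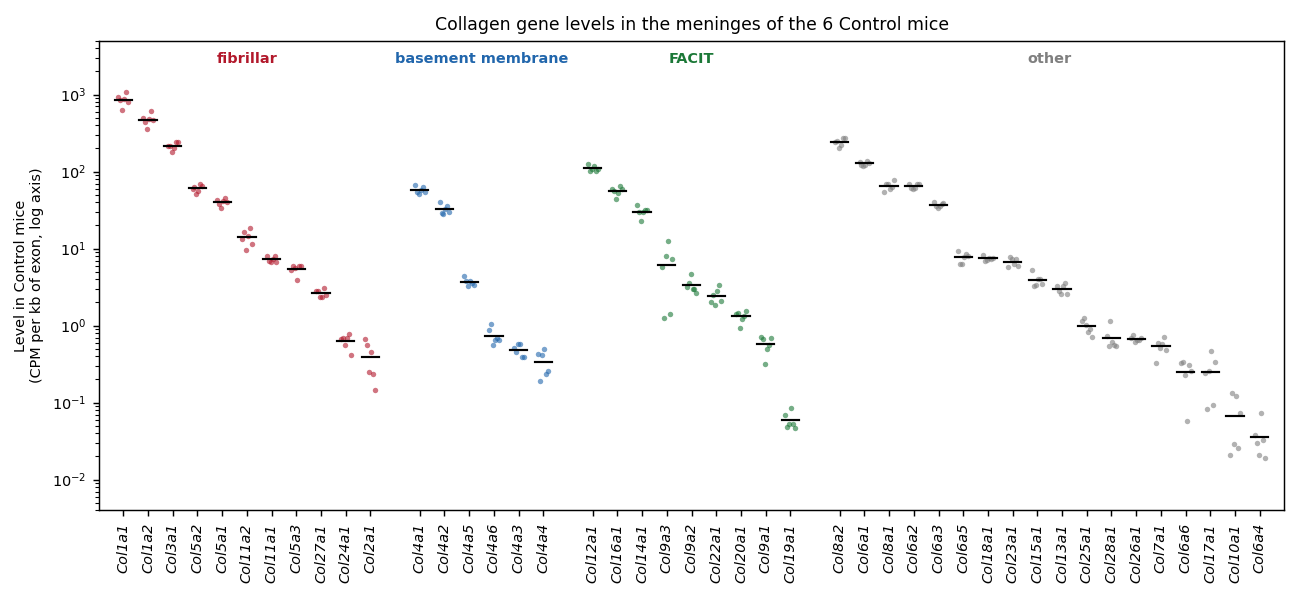
Level of each of the 44 collagen genes in the 6 Control mice, as CPM per kilobase of exon on a log axis, grouped by class, with 1 point per mouse and a bar at the mean. Col1a1 (862) and Col1a2 (474) lie at the top, and 15 genes lie under 1.

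Of the 44 genes, 41 had enough counts to be tested: all 11 fibrillar and all 6 basement membrane genes, 8 of 9 FACIT genes and 16 of 18 others. The 3 left out were Col19a1, a FACIT with 4 to 22 counts per Control mouse and 2 to 10 per DSS mouse, Col6a4, a type VI chain with 2 to 15 and 2 to 11, and Col10a1 with 1 to 8 and 0 to 5. In a fit without the count filter they did not pass either: the log2 fold changes were -0.60 ± 0.44 for Col19a1, -0.36 ± 0.46 for Col6a4 and -0.46 ± 0.64 for Col10a1 (SE), with adjusted p of 0.576, 0.771 and 0.804.

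With DSS, 0 of the 41 tested collagen genes passed an adjusted p of 0.05 in edgeR's quasi-likelihood test, where 4.94% of all tested genes did. At an unadjusted p under 0.05 the count was 6 of 41 (14.6%), against 19.0% of all tested genes. At an adjusted p under 0.1 it was 2 of 41, against 8.83%. For none of the 41 did all DSS mice lie on one side of all Control mice, against 3.05% of all tested genes. By other tools the count at adjusted p under 0.05 was 2 (DESeq2, where 8.28% of the genes with an adjusted p passed) and 1 (limma-voom with quality weights, 7.33%). The median log2 fold change, DSS over Control, was 0.01 over the 41 genes, with 21 positive and 20 negative, and -0.02 over all tested genes. The values ran from -0.66 for Col2a1 to 0.40 for Col27a1.

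The intervals show what size of change these 12 mice leave room for. For 38 of the 41 genes the 95% confidence interval of the change lay within 2-fold in both directions, against 84.7% of all tested genes. For 24 of the 41 it lay within 1.5-fold, against 62.6%. The 3 genes with wider intervals than 2-fold were Col2a1, Col9a3 and Col6a6. The 15 genes with the highest level were the same 15 in Control and in DSS mice, and no gene moved by more than 4 places in the order.

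**Figure D2:**
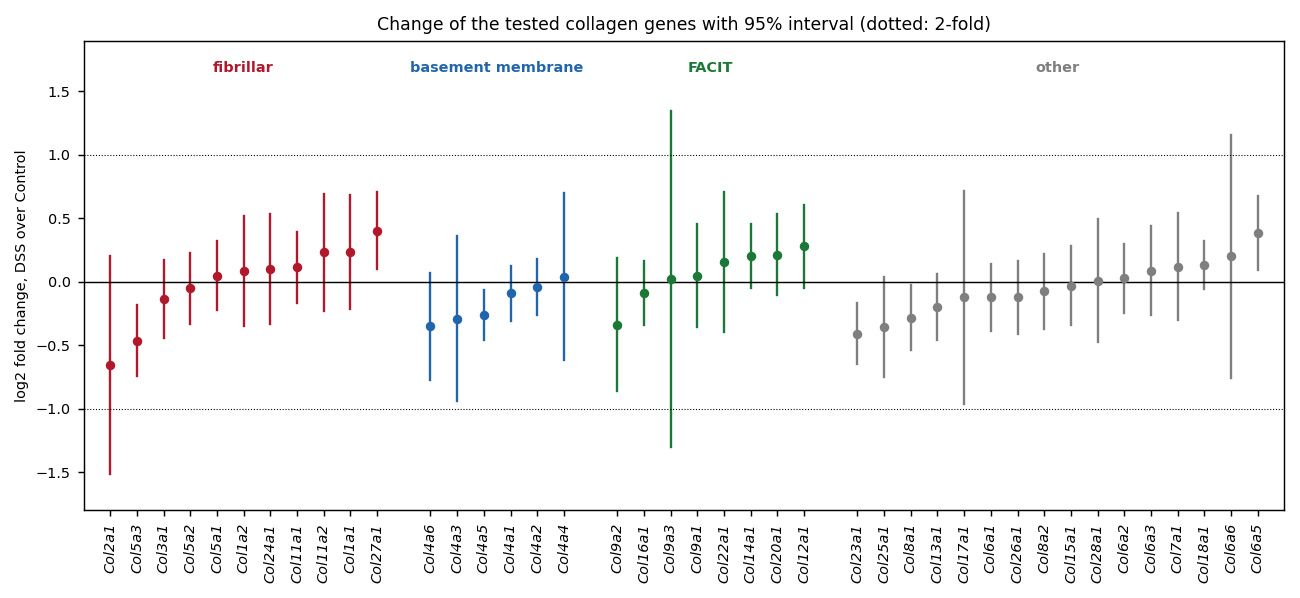
Log2 fold change, DSS over Control, of the 41 tested collagen genes by class, with bars for the 95% confidence interval and dotted lines at a 2-fold change. The values run from -0.66 (Col2a1) to 0.40 (Col27a1), and only the intervals of Col2a1, Col9a3 and Col6a6 cross a dotted line.

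Among the fibrillar genes, 0 of 11 passed the test, where 4.94% of all tested genes did. At that share, 0 calls among so few genes does not set a class apart, here or in the other classes. The median log2 fold change of the fibrillar genes was 0.09, with 7 positive and 4 negative. Col1a1 was at a lowest, median and highest of 4164, 5732 and 7044 CPM in Control mice and 4280, 6423 and 9121 CPM in DSS mice. The groups overlapped, with 2 DSS mice above every Control mouse, and the log2 fold change was 0.24 ± 0.21 (SE, 95% interval -0.21 to 0.68, adjusted p = 0.610). Col1a2 was at 4423, 5820 and 7639 CPM in Control mice and 3868, 6048 and 8318 CPM in DSS mice, a log2 fold change of 0.09 ± 0.20 (SE, interval -0.34 to 0.52, adjusted p = 0.878). Col3a1, which co-assembles with type I, was at 1756, 2128 and 2408 CPM against 1482, 1885 and 2504 CPM. Its log2 fold change was -0.14 ± 0.14 (SE, interval -0.44 to 0.17, adjusted p = 0.687). The intervals of these 3 abundant fibril collagens all held 0.

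Several minor fibrillar chains stood farther from 0. Col5a3, a further chain of type V collagen, was at a lowest, median and highest of 26.4, 39.1 and 41.0 CPM in Control mice and 20.9, 26.0 and 35.2 CPM in DSS mice. All 6 DSS mice lay below the Control median, 3 of them below every Control mouse. Control 4 held the lowest Control value, and the other Control mice were at 36.1 CPM or above. The log2 fold change was -0.46 ± 0.13 (SE, interval -0.74 to -0.18), with an adjusted p of 0.0569 in edgeR and 0.0177 in DESeq2. In limma-voom the adjusted p was 0.0575. Without Control 4 the log2 fold change was -0.54 (adjusted p = 0.0186, with 3.96% of all tested genes called). Without DSS 3 it was -0.56 (adjusted p = 0.0186, with 4.82% called). Col5a3 did not pass in any other fit that left out 1 mouse, with adjusted p up to 0.130. The other type V chains, which build the core that starts type I fibrils, had values nearer 0: Col5a1 had a log2 fold change of 0.05 ± 0.13 (SE) and Col5a2 one of -0.05 ± 0.13 (SE).

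Col27a1, a fibrillar chain of the cartilage growth plate, had the highest log2 fold change of the 41 genes, 0.40 ± 0.14 (SE, interval 0.10 to 0.71, adjusted p = 0.122). Control mice were at a lowest, median and highest of 30.4, 34.4 and 39.8 CPM and DSS mice at 31.7, 43.7 and 62.1 CPM, with 3 DSS mice above every Control mouse. The lowest of the DSS mice was DSS 2, the library with the high muscle markers, at 31.7 CPM. Without it the value was 0.50 (adjusted p = 0.0257, with 7.33% of all tested genes called), and with both replicates numbered 2 left out it was 0.52 (adjusted p = 0.0407, with 6.15% called). Col27a1 did not pass in any other fit that left out 1 mouse, with adjusted p up to 0.268.  Col2a1 had the lowest log2 fold change, -0.66 ± 0.40 (SE, interval -1.51 to 0.20, adjusted p = 0.415), from 1.37 to 6.14 CPM in Control mice and 0.999 to 3.94 CPM in DSS mice. Its coefficient of variation was over 50% in both groups. Col11a1 and Col11a2 had log2 fold changes of 0.11 ± 0.13 and 0.23 ± 0.22 (SE).

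**Figure D3:**
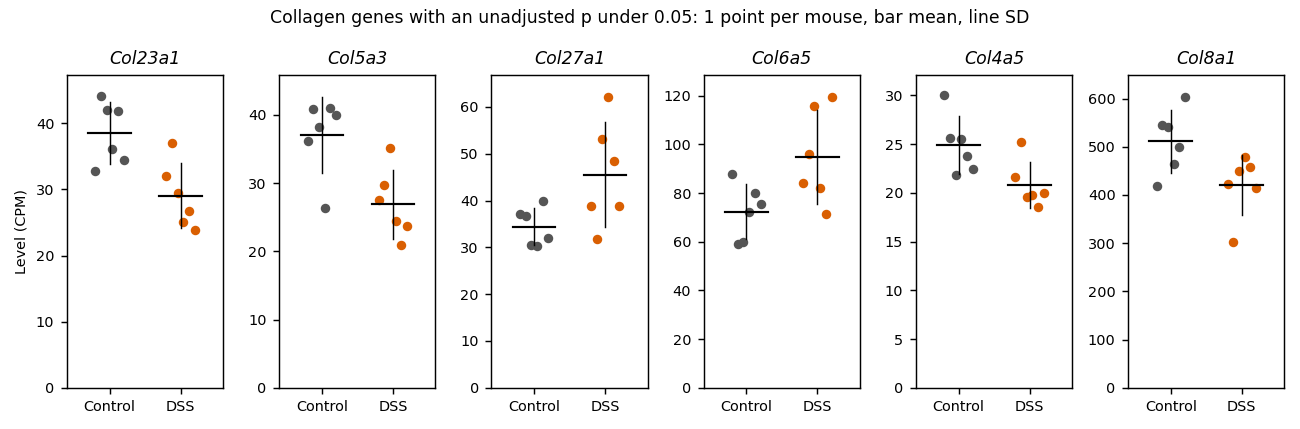
Level in CPM, 1 point per mouse with a bar at the mean and a line for the SD, of the 6 collagen genes with an unadjusted p under 0.05. In each panel the Control and DSS points overlap: 5 of 6 DSS mice are below every Control mouse for Col23a1 and Col4a5, 3 for Col5a3 and 2 for Col8a1, and 3 are above every Control mouse for Col27a1 and Col6a5.

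The 6 type IV genes lie as 3 head-to-head pairs. In the GRCm38 annotation Col4a1 (minus strand) and Col4a2 (plus strand) start at positions 11312826 and 11312805 of chromosome 8, so their first exons overlap by 22 bases. Col4a4 and Col4a3 start 72 bases apart on chromosome 1, at 82586849 and 82586921, and Col4a6 and Col4a5 start 1309 bases apart on chromosome X. The stretches around the first 2 pairs of starts are shown because both genes of a pair are read outward from them. They are the RefSeq windows from 250 bases before to 50 after the start of Col4a1 (chr8:11312777-11313076, minus strand, GRCm38.p6) and of Col4a4 (chr1:82586800-82587099, minus strand), written 5′ to 3′, with capitals for the bases from the annotated start of one gene to that of its partner, 22 and 73 bases.
Col4a1: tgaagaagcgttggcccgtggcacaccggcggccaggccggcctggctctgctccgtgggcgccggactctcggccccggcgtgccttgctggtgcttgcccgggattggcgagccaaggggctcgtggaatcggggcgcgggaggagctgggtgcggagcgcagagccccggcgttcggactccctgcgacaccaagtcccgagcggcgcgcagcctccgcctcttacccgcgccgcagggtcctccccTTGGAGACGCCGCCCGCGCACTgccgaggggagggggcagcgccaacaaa
Col4a4: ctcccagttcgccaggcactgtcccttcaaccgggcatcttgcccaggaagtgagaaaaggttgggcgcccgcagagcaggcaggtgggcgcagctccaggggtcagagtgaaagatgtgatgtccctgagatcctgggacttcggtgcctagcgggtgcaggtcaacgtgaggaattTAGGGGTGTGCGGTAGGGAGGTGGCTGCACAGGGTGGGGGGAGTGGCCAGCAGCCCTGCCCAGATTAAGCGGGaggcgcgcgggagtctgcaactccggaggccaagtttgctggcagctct

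Both windows were searched on both strands for 3 motifs that do not overlap each other. The letters CCAAT occur in 37.4% of 32851 such windows. The letters GGGCGG occur in 35.7% of them, and TATAAA in 13.6%. The Col4a1 window holds CCAAT once on the reverse strand, at -145 in bases from the start of Col4a1. It also holds GGGCGG once on the reverse strand, at position 10. The Col4a4 window holds none of the 3. A window was found for 35 of the 44 collagen genes.

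The 2 pairs differed by far in level in control meninges. Col4a1 and Col4a2, the chains of nearly all basement membranes, were at levels of 57.9 ± 6.09 and 32.7 ± 4.61 (SD, n = 6). Col4a3 and Col4a4, chains of the kidney, lung and cochlea, were at 0.483 ± 0.0862 and 0.335 ± 0.125. Of the third pair, Col4a5 was at 3.70 ± 0.442 and Col4a6 at 0.743 ± 0.181. Type IV as a whole made up 3.76 ± 0.338% of the summed collagen level in Control mice and 3.51 ± 0.994% in DSS mice (SD, n = 6 each).

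With DSS, 0 of the 6 type IV genes passed the test, where 4.94% of all tested genes did. The median log2 fold change of the 6 was -0.18, with 1 positive and 5 negative. Col4a1 was at a lowest, median and highest of 382, 420 and 503 CPM in Control mice and 323, 418 and 468 CPM in DSS mice, a log2 fold change of -0.09 ± 0.10 (SE, interval -0.30 to 0.13, adjusted p = 0.709). Col4a2 was at 188, 208 and 266 CPM against 174, 220 and 232 CPM, a log2 fold change of -0.04 ± 0.10 (SE, interval -0.26 to 0.18, adjusted p = 0.890). Col4a5 was at 21.8, 24.6 and 30.0 CPM in Control mice and 18.6, 19.9 and 25.2 CPM in DSS mice. Although 5 of 6 DSS mice lay below every Control mouse, the log2 fold change of -0.26 ± 0.09 (SE, interval -0.46 to -0.06) had an adjusted p of 0.126. Without DSS 2 the adjusted p was 0.0488, with 7.33% of all tested genes called. Col4a5 did not pass in any other fit that left out 1 mouse, with adjusted p up to 0.237.

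The FACIT genes also gave 0 calls among the 8 tested, where 4.94% of all tested genes passed. The median log2 fold change of the 8 was 0.10, with 6 positive and 2 negative. Col12a1 was at a lowest, median and highest of 1565, 1638 and 1900 CPM in Control mice and 1306, 2114 and 2608 CPM in DSS mice. In 4 DSS mice it was above every Control mouse and in 1 below, and the log2 fold change was 0.28 ± 0.15 (SE, interval -0.05 to 0.61, adjusted p = 0.351). Col14a1 was at 159 to 258 CPM in Control mice and 212 to 303 CPM in DSS mice (0.20 ± 0.12, SE, interval -0.05 to 0.45, adjusted p = 0.379). Col16a1, a FACIT of fibrillin and collagen networks, was at 302 to 442 CPM and 280 to 420 CPM (-0.09 ± 0.12, SE, interval -0.34 to 0.16, adjusted p = 0.754).

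Col9a3 varied more between mice than any other tested collagen gene. This chain of cartilage type IX collagen was at a lowest, median and highest of 4.86, 25.5 and 47.9 CPM in Control mice and 2.96, 21.6 and 45.9 CPM in DSS mice, and its log2 fold change was 0.02 ± 0.62 (SE, interval -1.30 to 1.35, adjusted p = 0.993). Control 2, Control 5, DSS 3 and DSS 4 held the 4 lowest values, at 4.86, 5.52, 7.18 and 2.96 CPM. The same 4 mice had the lowest sums of 8 choroid plexus epithelium markers, the epithelium that makes cerebrospinal fluid: 301, 285, 944 and 324 CPM, against 4554 to 9692 CPM in the other 8 mice. Of those 8 markers, 0 passed the test between DSS and Control. The defining marker Ttr was at 9.12 to 6426 CPM over Control mice and 4.23 to 6540 CPM over DSS mice. The part of choroid plexus in the Col9a3 values was not tested. In bulk RNA fewer cells of a type and less RNA per cell cannot be told apart. Col9a1 and Col9a2, the partner chains of type IX, were at levels of 0.573 ± 0.148 and 3.33 ± 0.718 in Control mice, and had log2 fold changes of 0.05 ± 0.19 and -0.34 ± 0.24 (SE). Exons of Col9a3 share 6.07% of their bases with Tcfl5, which lies on the opposite strand. The strand setting of the counting is not given, so some reads counted for Col9a3 may belong to Tcfl5.

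The remaining class held 16 tested genes and gave 0 calls, where 4.94% of all tested genes passed. The median log2 fold change of the 16 was -0.05, with 7 positive and 9 negative. Col23a1, a membrane-spanning collagen that can be shed from the cell surface, came nearest to the threshold of all 41. It was at 32.8, 44.1, 42.1, 36.0, 41.9 and 34.4 CPM in Control mice 1 to 6 and at 32.1, 37.0, 29.4, 25.0, 26.8 and 23.9 CPM in DSS mice 1 to 6. All DSS mice but DSS 2 lay below every Control mouse. The log2 fold change was -0.41 ± 0.11 (SE, interval -0.65 to -0.17), with an adjusted p of 0.0515 in edgeR, 0.0172 in DESeq2 and 0.0158 in limma-voom. Over fits that each left out 1 mouse the adjusted p ran from 0.0134 (without DSS 2) to 0.127 (without Control 2), and it was also under 0.05 without Control 1 (0.0372, with 5.27% of all tested genes called).

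Type VI, the beaded microfibril collagen around cells and fibres, was represented by 6 genes. Col6a1 was at a lowest, median and highest of 520, 555 and 598 CPM in Control mice and 380, 495 and 664 CPM in DSS mice. Here 4 DSS mice lay below every Control mouse and the other 2 above, and the log2 fold change was -0.12 ± 0.12 (SE, adjusted p = 0.669). Col6a2 and Col6a3 had log2 fold changes of 0.03 ± 0.13 and 0.09 ± 0.16 (SE). Col6a5, a further chain found in skin and other connective tissue, had one of 0.39 ± 0.14 (SE, interval 0.10 to 0.68, adjusted p = 0.124), from 58.9 to 87.6 CPM in Control mice and 71.3 to 120 CPM in DSS mice. Of type VIII, Col8a1 was at 419, 520 and 604 CPM against 302, 436 and 479 CPM. All 6 DSS mice lay below the Control median, and the log2 fold change was -0.28 ± 0.12 (SE, interval -0.54 to -0.03, adjusted p = 0.204). Col8a2, its partner, had one of -0.07 ± 0.14 (SE, interval -0.37 to 0.22, adjusted p = 0.842).

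For most of the collagen genes the spread between mice was wider with DSS. The coefficient of variation was larger in DSS than in Control mice for 34 of the 41 genes, with medians of 20.9% and 15.1%. The same count was not made over all tested genes, so it is not known whether this is particular to collagen genes. The 41 genes were also read in the same libraries and are not separate observations. DSS 2 held the lowest of the 12 values for 14 genes and DSS 5 for 9, while DSS 4 held the highest for 14. For Col6a3 the coefficient of variation was 6.62% in Control mice and 29.6% in DSS mice. Counts from collagen genes made up 0.878% to 2.52% of all counts in Control mice and 1.61% to 3.46% in DSS mice. The 0.878% belonged to Control 2, the library with many ribosomal RNA counts, and the other Control mice were at 1.93% to 2.52%. The summed collagen CPM was 21271 ± 2556 in Control mice and 22662 ± 5202 in DSS mice (SD, n = 6 each). Shares of the classes in the summed level overlapped between the groups: fibrillar genes held 65.5 ± 2.51% in Control and 67.5 ± 3.98% in DSS mice, FACIT genes 8.29 ± 0.777% and 8.79 ± 0.670%, and the other genes 22.4 ± 1.85% and 20.2 ± 2.73% (SD, n = 6 each).

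Ratios of chains within a library do not depend on the scaling between libraries. They were computed from the levels per kilobase for 11 pairs and are given as a description, with no test. For none of the 11 were the groups apart. Col1a1 over Col1a2 was 1.73 to 1.95 in Control mice and 1.78 to 2.14 in DSS mice, with means of 1.82 ± 0.0854 and 2.01 ± 0.126 (SD, n = 6 each). All DSS mice but DSS 3 lay above every Control mouse. Col6a1 over Col6a2 was 1.97 ± 0.0506 in Control mice and 1.78 ± 0.0804 in DSS mice, and 5 of 6 DSS mice lay below every Control mouse. Col3a1 over Col1a1 was 0.255 ± 0.0299 against 0.201 ± 0.0364, with 4 DSS mice below every Control mouse. Col6a3 over Col6a1 was 0.289 ± 0.00775 against 0.331 ± 0.0457, with 4 DSS mice above and 1 below all Control mice. Col4a1 over Col4a2 was 1.78 ± 0.0650 against 1.71 ± 0.0591, with 2 DSS mice below. Of the low type IV pair, Col4a3 over Col4a4 was 1.56 ± 0.452 against 1.10 ± 0.222, with 5 DSS mice below every Control mouse. Col5a1 over Col5a2 was 0.668 ± 0.0470 against 0.718 ± 0.0579 and Col8a2 over Col8a1 3.78 ± 0.566 against 4.32 ± 0.431, each with 1 DSS mouse above all Control mice. Col4a5 over Col4a6 was 5.13 ± 0.813 against 5.49 ± 0.952, with 2 above. Col11a1 over Col11a2 was 0.539 ± 0.108 against 0.497 ± 0.0724, with 1 below (all SD, n = 6). Col9a3 over Col9a2 was 0.350 to 4.19 in Control mice and 0.278 to 3.75 in DSS mice, also with 1 below. The length used scales each ratio by a constant and does not change its order over mice.

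**Figure D4:**
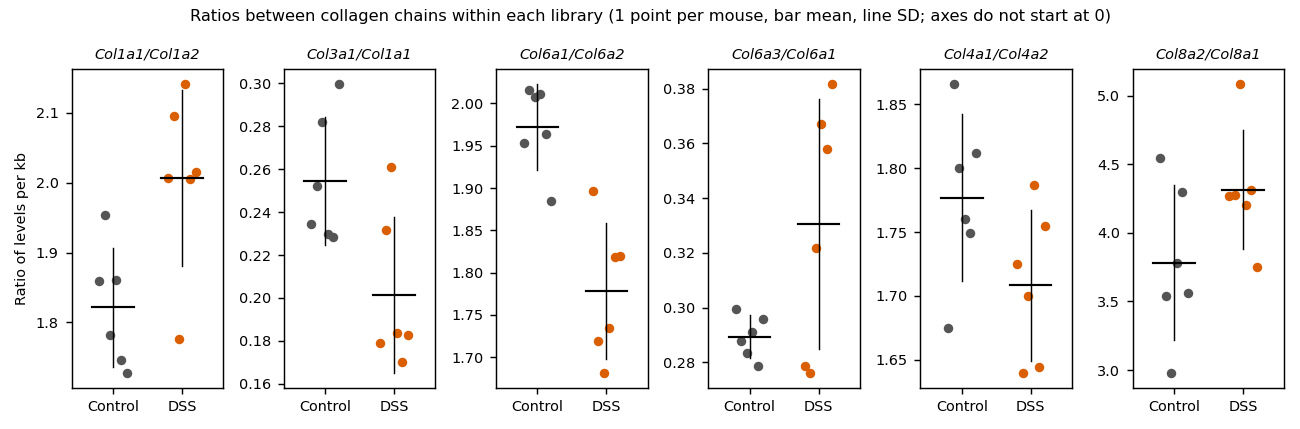
Ratios between the levels of collagen chains within each library, 1 point per mouse with a bar at the mean and a line for the SD. The vertical axes do not start at 0. For Col1a1 over Col1a2, 5 of 6 DSS mice lie above every Control mouse, and for Col6a1 over Col6a2 5 of 6 lie below.

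Other genes of the collagen pathway were counted by lists. Over all tested genes, 3.68% rose and 1.26% fell. At those shares, 0 calls in a list of 22 genes or fewer does not set the list apart. Of the 22 tested genes that fold and modify procollagen in the endoplasmic reticulum, 0 rose and 0 fell, with log2 fold changes from -0.36 to 0.24. The collagen chaperone Serpinh1, named here after its values were seen, was at 547 to 760 CPM in Control mice and 451 to 889 CPM in DSS mice (0.05 ± 0.15, SE). Of the 12 tested genes that trim procollagen and cross-link fibrils, 0 rose and 0 fell, from -0.35 to 0.21. The cross-linking enzyme Lox, also named after its values were seen, was at 86.9 to 106 CPM and 72.8 to 110 CPM (-0.01 ± 0.09, SE). The lowest of the 12 was Loxl1, at 314 to 416 CPM against 224 to 334 CPM (-0.35 ± 0.11, SE, adjusted p = 0.0833). In 4 DSS mice Loxl1 was below every Control mouse. The highest was Tll1 (0.21 ± 0.16, SE, adjusted p = 0.545). With DESeq2, 1 gene of this list fell, where 8.28% of the genes with an adjusted p passed.

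Of the 13 tested genes for proteins that bind fibrils, 0 rose and 1 fell. This was Omd, osteomodulin, a small proteoglycan of mineralized tissue, at 55.1 to 107 CPM in Control mice and 24.2 to 57.6 CPM in DSS mice. In 5 DSS mice it was below every Control mouse, and the log2 fold change came to -0.79 ± 0.21 (SE, adjusted p = 0.0428). In fits that each left out 1 mouse it passed in 4 of 12 (without Control 1, Control 4, DSS 2 or DSS 5), with adjusted p from 0.0191 to 0.104. The log2 fold changes of the 13 ran from -0.79 to 0.20, with a median of -0.04. Next to Omd came Aspn, at -0.49 ± 0.14 (SE, adjusted p = 0.0566), with 5 DSS mice below every Control mouse. With DESeq2, 4 genes of this list fell, where 8.28% of the genes with an adjusted p passed.

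Of the 13 tested genes of collagen breakdown and uptake, 1 rose and 2 fell. Mmp8, the collagenase of neutrophil granules, was at a lowest, median and highest of 1.44, 2.20 and 5.79 CPM in Control mice and 5.58, 21.7 and 40.2 CPM in DSS mice. It was 8.58-fold higher in DSS mice (log2 fold change 3.10 ± 0.42, SE, adjusted p = 0.000845), with all DSS mice but DSS 3 above every Control mouse. The 9 neutrophil markers all rose too, where 3.68% of all tested genes did. This list and the osteoclast list were chosen with earlier results of these data known. The neutrophil sum was 60.1 to 182 CPM in Control mice and 236 to 1251 CPM in DSS mice, lowest in DSS 3. The part of neutrophils in the rise of Mmp8 was not tested. Ctsk, the collagen-degrading cathepsin of osteoclasts and fibroblasts, was at 146 to 187 CPM and 71.4 to 152 CPM (-0.66 ± 0.15, SE, adjusted p = 0.0221). Mmp9, a gelatinase, was at 99.8 to 147 CPM and 80.8 to 113 CPM (-0.40 ± 0.10, SE, adjusted p = 0.0350). Beside these, 4 of 7 tested osteoclast markers fell, where 1.26% of all tested genes did. The smallest p among them was that of Acp5, the tartrate-resistant phosphatase of osteoclasts (91.1 to 209 CPM against 27.5 to 81.9 CPM), and the osteoclast sum was 137 to 274 CPM in Control mice and 71.2 to 138 CPM in DSS mice. The part of osteoclasts in Ctsk and Mmp9 was not tested. In fits that each left out 1 mouse Mmp8 passed in 12 of 12, Ctsk in all but those without Control 2, Control 3, Control 5, DSS 1 or DSS 6 (adjusted p up to 0.0597), and Mmp9 only in those without Control 6, DSS 3 or DSS 4 (up to 0.0825). Of the 4 osteoclast genes, Acp5, Atp6v0d2 and Oscar passed in 12 of 12 and Dcstamp in 6 (up to 0.0820).

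Of the 10 tested collagen receptors, 2 rose and 1 fell. Lair1, an inhibitory collagen receptor of leukocytes, was at 8.56 to 12.0 CPM in Control mice and 13.2 to 18.7 CPM in DSS mice, so that the groups did not overlap (0.52 ± 0.11, SE, adjusted p = 0.0123). Adgrg6, an adhesion receptor that binds type IV collagen, was at 14.5 to 25.4 CPM against 22.4 to 31.4 CPM (0.51 ± 0.14, SE, adjusted p = 0.0436). Itga2, the integrin chain that binds type I collagen, was at 6.70 to 8.08 CPM against 5.36 to 6.28 CPM, again without overlap (-0.35 ± 0.09, SE, adjusted p = 0.0397). Over all tested genes, 3.05% had groups that did not overlap, and 4.94% passed the test. Lair1 passed in 12 of the 12 fits that left out 1 mouse, Adgrg6 in 3 (without Control 1, Control 2 or DSS 1; adjusted p up to 0.105) and Itga2 in 1 (without Control 6; up to 0.0929). Of the 15 other basement membrane components, 1 rose and 0 fell. This was Nid2, nidogen 2, which links laminin to type IV collagen, at 43.4 to 56.2 CPM against 51.4 to 67.7 CPM (0.31 ± 0.08, SE, adjusted p = 0.0401). It passed in 4 of the 12 fits, those without Control 1, Control 4, DSS 1 or DSS 2 (adjusted p up to 0.1002).

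Cell type markers were summed beside the collagen values. Col1a1 and the osteoblast and osteocyte list had the same 3 highest mice, Control 5, DSS 4 and DSS 5. The same 3 mice were highest for Col1a2, Col11a2 and the summed collagen CPM, so this was not particular to Col1a1. Col1a1 was at 7044, 9121 and 8809 CPM there, and the marker sum at 2355, 1792 and 2400 CPM, against 758 to 1572 CPM in the other 9 mice. Most of the sum came from Bglap, Bglap2 and Alpl, with means of 474, 457 and 454 CPM in Control mice. The marker Ibsp did not have this order: it was highest in Control 3, at 54.6 CPM, and at 16.7 and 20.2 CPM in DSS 4 and DSS 5, below every Control mouse. Of the 12 tested osteoblast markers 0 rose and 1 fell, Ibsp, a bone matrix sialoprotein (-1.06 ± 0.28, SE, adjusted p = 0.0416, passed in 4 of the 12 fits that left out 1 mouse, with adjusted p up to 0.102). The fibroblast sum was 2953 to 3883 CPM in Control mice and 2352 to 2991 CPM in DSS mice, with 5 of 6 DSS mice below every Control mouse. Of its 14 tested genes 0 rose and 1 fell, Aldh1a2, an enzyme of retinoic acid synthesis in meningeal fibroblasts (-0.62 ± 0.12, SE, adjusted p = 0.00874). The sums for endothelium were 632 to 805 CPM and 646 to 914 CPM, for pericytes and smooth muscle 1394 to 1606 CPM and 1291 to 1514 CPM, and for Schwann cells 147 to 234 CPM and 132 to 265 CPM. None of these 3 lists, of 8 genes each, had a gene that passed the test. The part of any cell type in the collagen values was not tested.

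**Figure D5:**
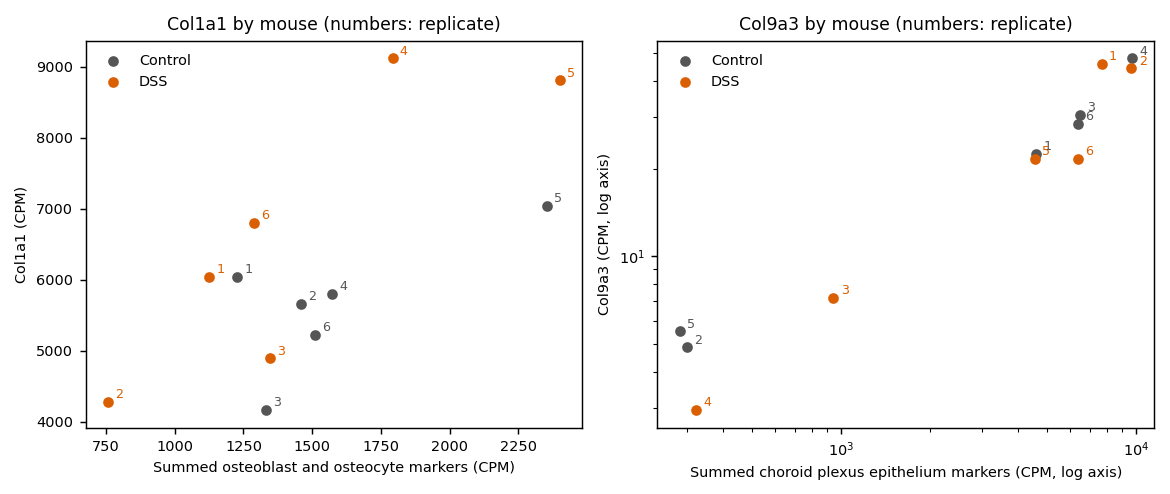
Col1a1 against the summed osteoblast and osteocyte markers, and Col9a3 against the summed choroid plexus markers on log axes, in CPM with 1 point per mouse, numbered by replicate. Col1a1 is highest in Control 5, DSS 4 and DSS 5, as are Col1a2 and the summed collagen CPM (not drawn). Col9a3 is lowest in Control 2, Control 5, DSS 3 and DSS 4.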

How the data were processed

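Per the labels' protocols, RNA was extracted with an RNEasy plus micro kit and libraries made with a TruSeq stranded total RNA kit. The authors deposited whole-number counts per gene symbol, used here, and a normalized table, not used. HISAT2 and featureCounts on mm10, together with CASAVA, FastQC and Trim Galore, are named per the submitters' processing notes. Neither versions nor annotation nor strand setting appear there, so reads shared by overlapping genes are uncertain: exons of 13 collagen genes overlap another gene, over 5% of bases in 2 (Col9a3 and Col4a3). For both of these the other gene lies on the opposite strand.

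Genes were filtered with filterByExpr (minimum count 10, minimum total 15) and tested with edgeR 4.0.16 in R 4.3.3: TMM factors, quasi-likelihood F-test, treatment as the only term, two-sided, Benjamini-Hochberg adjusted over 18593 genes. Adjusted p-values are from this fit unless another is named. A gene rose or fell where its adjusted p was under 0.05. The procedure was tested on simulated data. Alternatives were DESeq2 1.42.0, limma 3.58.1 (voom), other scalings and filters, each mouse left out, and replicate numbers as a block. Leaving out both replicates numbered 2 was chosen after seeing the data.

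Lengths came from GENCODE M21 on GRCm38, the assembly of mm10, for all 44 genes, and promoter windows from RefSeq (GRCm38.p6). The members and lists were chosen with earlier results of these data known. Genes named by rule are the 3 with the highest Control level per class, the 3 highest and 3 lowest fold changes, chains of heterotrimers and of cartilage, untested genes, and up to 3 called genes per list. Col4a3, Col4a4, Col4a6, Col6a6, Col7a1, Col17a1, Col25a1, Col28a1, Bglap, Bglap2, Alpl, Serpinh1, Lox, Loxl1, Tll1, Aspn, Ttr, Dcstamp and the tissue check's genes were named after their values were seen.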

Additional observations from a re-analysis of the deposited data

Results flagged for a closer look

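In 112 groups of 6 mice (41 tested collagen genes, 4 class shares and 11 chain ratios, in Control and in DSS mice), 5 had 1 mouse whose gap to the nearest other mouse was larger than Dixon's limit allows as a share of the group's range, where chance at 1 in 20 gives 5.6. Col28a1 was highest among Control mice in Control 3, at 5.662 CPM, with the others at 2.683 to 3.601 CPM. Col5a3 was lowest among Control mice in Control 4, at 26.37 CPM, with the others at 36.11 to 40.98 CPM. Col8a1 was lowest among DSS mice in DSS 2, at 301.7 CPM, with the others at 413.9 to 478.8 CPM. The ratio of Col1a1 to Col1a2 was lowest among DSS mice in DSS 3, at 1.777, with the others at 2.005 to 2.141. The ratio of Col4a5 to Col4a6 was lowest among Control mice in Control 2, at 3.668, with the others at 5.08 to 5.9.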

How the results depend on the processing

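Of 520 values of the 26 collagen genes named by rule over 20 other settings, 487 kept their direction and their side of the threshold, 14 passed it and 19, from 9 genes, had the other sign, with a lowest adjusted p of 0.765 among the last. The 20 settings include the main fit read at an adjusted p under 0.1, in which no sign can change. Among the 14 are the values of Col23a1 (0.0515) and Col5a3 (0.0569) in that setting, which passed only the looser threshold. The count of collagen genes called stayed at 0 with DESeq2's size factors, without the filter and with a filter at 1 CPM. It was 2 lower in DSS with DESeq2 (1 fibrillar, 1 of the other class), 1 lower with limma-voom (of the other class), and 2 lower at an adjusted p under 0.1 (1 fibrillar, 1 of the other class). With both replicates numbered 2 left out it was 1 higher (fibrillar) and 1 lower (of the other class). Leaving out 1 mouse gave 0 to 1 higher (fibrillar) and 0 to 2 lower, with 0 to 1 lower among fibrillar, among basement membrane and among other genes. With the replicate block 2 were lower, both of the other class, Col23a1 (adjusted p = 0.0394) and Col25a1, where 3.81% of all tested genes passed. Same-numbered mice did not deviate together over all tested genes (correlations -0.189 to 0.154 over 6 pairs). The numbers come from the sample titles, and these correlations cannot settle whether they pair the mice.

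Among the pathway lists, DESeq2 gave 1 fallen gene for processing and cross-linking and 4 for fibril-associated proteins. With the replicate block 1 gene of degradation fell, 0 receptors rose (Lair1 had an adjusted p of 0.0694 and Adgrg6 of 0.101), 0 receptors fell and 0 other basement membrane components rose. With both replicates numbered 2 left out, 1 gene of degradation and 0 receptors fell, and 0 other basement membrane components rose. Leaving out 1 mouse gave 0 to 1 risen for folding, 0 to 2 fallen for fibril-associated proteins, 0 to 3 fallen for degradation, 1 to 2 risen and 0 to 1 fallen for receptors, and 0 to 1 risen and 0 to 1 fallen for other basement membrane components.

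The sign turned with both replicates numbered 2 left out for Col5a2 (0.0477), Col8a2 (0.0212) and Col9a3 (-0.4235), and with limma-voom for Col9a3 (-0.1775). Leaving out 1 mouse spanned 0 for Col1a2 (-0.0104 to 0.2066), Col4a2 (-0.0712 to 0.0271), Col5a1 (-0.0376 to 0.1425), Col5a2 (-0.1379 to 0.0388), Col6a2 (-0.0690 to 0.1059), Col6a3 (-0.0387 to 0.2070), Col8a2 (-0.1501 to 0.0201), Col9a1 (-0.0501 to 0.1191) and Col9a3 (-0.2806 to 0.3781). With the longest transcript as length, the Control shares became 70.97% fibrillar, 2.868% basement membrane, 7.381% FACIT and 18.78% other, and the DSS shares 72.38% fibrillar, 7.88% FACIT and 17.04% other, since the lengths differ by gene. For the other changes the cause was not tested.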
